A study of Homo sapiens with 6 samples.

Results

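The genes described here carry glucose from the cell surface to lactate and through the pentose phosphate pathway. They are the members of a fixed list of 30 genes for glucose transporters, glycolytic enzymes, lactate dehydrogenases, lactate exporters and enzymes of the pentose phosphate pathway. For each gene the brightest probe set, by its mean over the 6 arrays, was taken from those annotated to that gene alone. In this way 28 of the 30 listed genes were found, among 19775 genes in all. The lactate exporters SLC16A1 and SLC16A3 were not analysed here.

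The arrays measured T47D, a human luminal breast cancer cell line. The 3 arrays of the treated group came from cells given GDC-0941, an inhibitor of the class I PI3 kinases, for 6 hours, and the 3 control arrays from cells whose agent is labelled as none. The labels write the dose as 1 mM, where a micro sign may have been lost, and they do not say whether controls received the solvent. Both groups share the line, a culture medium with serum and glutamine, and the extraction kit, and nothing states that replicates were separate cultures. The p-values thus rest on a spread between samples that may be technical only. Values are log2 RMA signals, a scale on which each array is normalized to the others.

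Glycolysis turns glucose into pyruvate through a chain of cytosolic enzymes, and lactate dehydrogenase then converts pyruvate to lactate. The hexokinase and phosphofructokinase steps are its regulated entry points, and several steps are served by paralogous enzymes with different control. The pentose phosphate pathway branches off after hexokinase and supplies NADPH and ribose for nucleotides. Signalling through PI3 kinase and AKT is known to favour glucose uptake and glycolysis in many tumour cells, partly through the transcription factors HIF-1 and MYC. MYC binds the E-box CACGTG, and HIF-1 binds elements with the core ACGTG.

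Promoter windows are shown for the genes with the largest falls, HK2 and PFKP, and for those that rose, PFKM and PFKFB3. Each is RefSeq sequence of the plus strand of GRCh38.p14, with 250 bases before an annotated start and the first 20 bases after it. A gene with several annotated starts is shown by the window that holds CACGTG or, failing that, ACGTG. The HK2 window is chr2:74834920-74835189, that of PFKP is chr10:3068939-3069208, that of PFKM is chr12:48105103-48105372 and that of PFKFB3 is chr10:6202682-6202951. Capitals mark CACGTG or ACGTG on either strand. Every CACGTG contains ACGTG on both strands.
HK2: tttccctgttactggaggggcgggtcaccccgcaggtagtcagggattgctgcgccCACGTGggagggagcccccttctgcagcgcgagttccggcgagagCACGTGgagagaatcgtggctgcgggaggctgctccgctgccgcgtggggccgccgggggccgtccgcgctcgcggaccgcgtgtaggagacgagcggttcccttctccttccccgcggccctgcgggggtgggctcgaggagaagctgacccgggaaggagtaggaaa
PFKP: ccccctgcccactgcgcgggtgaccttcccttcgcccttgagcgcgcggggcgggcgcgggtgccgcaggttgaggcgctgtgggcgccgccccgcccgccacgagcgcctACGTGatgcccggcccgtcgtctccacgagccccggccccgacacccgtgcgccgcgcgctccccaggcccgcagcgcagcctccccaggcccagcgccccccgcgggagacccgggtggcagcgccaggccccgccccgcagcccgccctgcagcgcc
PFKM: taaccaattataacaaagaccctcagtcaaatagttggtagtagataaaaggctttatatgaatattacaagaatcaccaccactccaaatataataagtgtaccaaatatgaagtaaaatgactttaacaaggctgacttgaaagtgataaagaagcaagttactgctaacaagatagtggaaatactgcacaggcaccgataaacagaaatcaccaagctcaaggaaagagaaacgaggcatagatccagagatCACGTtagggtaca
PFKFB3: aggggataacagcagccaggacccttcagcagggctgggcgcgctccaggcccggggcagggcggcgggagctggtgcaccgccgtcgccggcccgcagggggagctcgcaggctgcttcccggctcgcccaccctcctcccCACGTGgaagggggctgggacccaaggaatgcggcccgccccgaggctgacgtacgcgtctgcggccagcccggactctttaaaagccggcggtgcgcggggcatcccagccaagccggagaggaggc

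HK2 held the E-box 2 times, with first bases 194 and 149 bases before the start, and PFKFB3 held it once, 108 bases before the start. PFKP held ACGTG 139 bases before the start. In PFKM it lay on the opposite strand from the 7th base after the start, a gene with 7 annotated windows. ACGTG was in 2 of 2 HK2 windows, 1 of 4 PFKP windows, 2 of 7 PFKM windows and 1 of 2 PFKFB3 windows, and the windows shown were picked because they hold it. Over all windows of 300 bases, CACGTG was present for 6 of the 26 measured genes with a window (23.1%), against 8.77% of the 27305 genes in the table. Counted by window, these were 12.8% of 47 windows against 7.26% of 35116. The 6 genes were HK2, PFKFB3, ALDOA, ALDOC, GAPDH and LDHA, and their log2 differences ran in both directions, between -1.05 for HK2 and 0.25 for PFKFB3. ACGTG was present for 13 of the 26, against 24.9% of all genes, and in 36.2% of their windows against 21.4% of all windows. The FOXO core GTAAACA was in none of the 47 windows, against 3.42% of all windows, which says only that these letters are not there.

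GDC-0941 lowered 13 of the 28 measured genes and raised 2, while 13 did not pass an adjusted p of 0.05 (limma, adjusted over all 19775 genes). Among all genes 15.6% were called lower and 12.1% higher. The median log2 difference of the 28 genes was -0.149, against -0.017 for all genes. The falls of HK2 and PFKP stood out in size, at 2.06-fold and 1.71-fold, and the other 11 genes that fell were 1.16-fold to 1.29-fold lower. Most members gave bright signals, and among the 9888 genes above the median level 31.4% were called lower and 23.2% higher, with 13 and 3 of the 24 members in that fit. These 13 are not the same genes. HK2 and ENO2 lie below the median level and are absent from that fit. PGK1 and PGLS were called lower in it and ALDOC higher (limma adjusted p = 0.0376, 0.0201 and 0.049).

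The calls of the smaller falls depended on the reference. When each array was centred on its 18 hybridisation control probe sets (bacterial and phage transcripts added before hybridisation), HK2 and PFKP were still lower but no other gene was, and SLC2A3, PFKM, PFKFB3 and ALDOC were higher. With that centring 4.53% of all genes were called lower and 28.8% higher, and the median of all genes was 0.152. The 11 genes with smaller falls kept a negative sign there, between -0.20 for TPI1 and -0.04 for ENO1, and none passed. The SE there was 0.1 for every measured member, against 0.05 (TPI1) to 0.08 (TKT) in the main fit. The amount added is shared by all genes of an array, so their differences shift together. The sign turned in 9 genes, none of them called in either fit. Falls below are therefore relative to the rest of the array. As these are bulk samples, fewer cells that express a gene and less RNA per cell cannot be told apart.

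**Figure D1:**
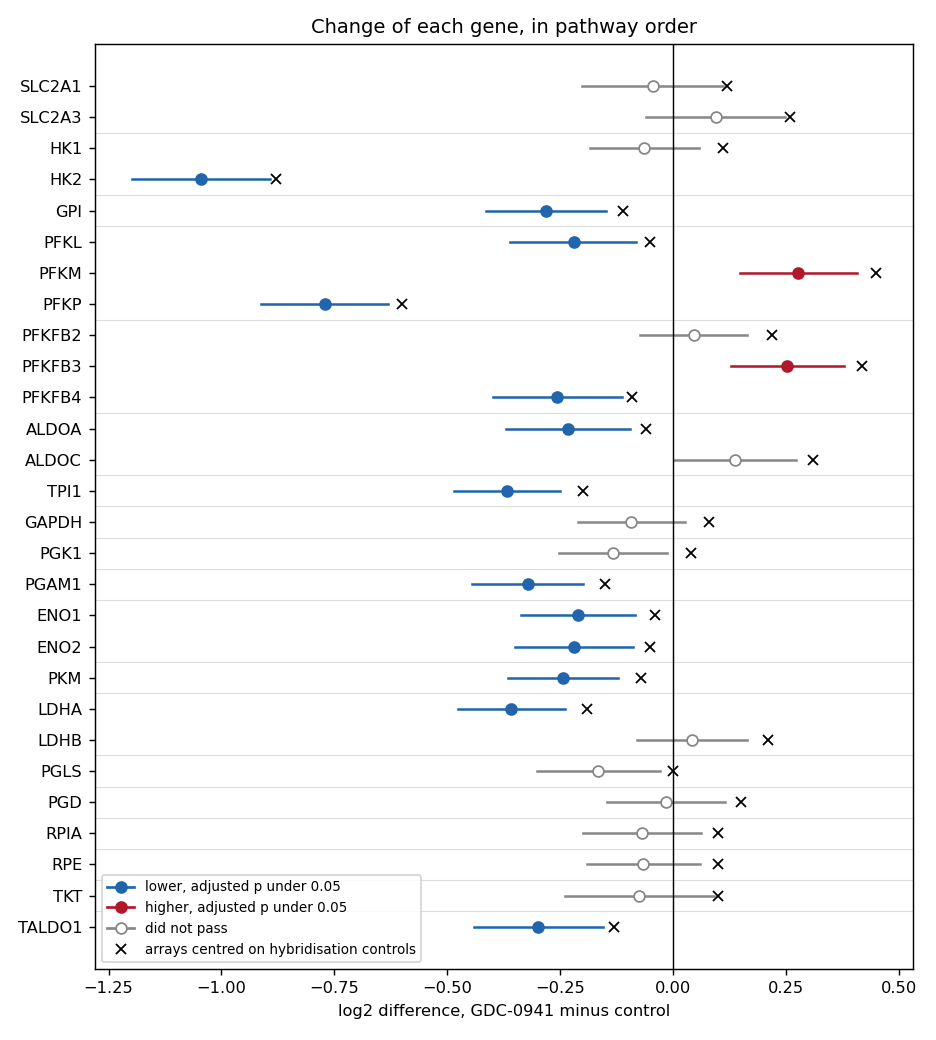
Log2 difference (GDC-0941 minus control, horizontal axis) of each of the 28 genes, in pathway order down the page, with 95% confidence intervals from limma. Filled points passed an adjusted p of 0.05 and crosses give the difference with arrays centred on hybridisation controls. HK2 at -1.05 and PFKP at -0.77 lie far left of the others, and the crosses of HK2 and PFKP stay left of -0.5.

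Both glucose transporters among the 28 genes gave no call. SLC2A1 (GLUT1), the transporter of basal glucose uptake, had 8.95, 9.04 and 9.02 on the GDC-0941 arrays, against 9.18, 9.05 and 8.91 on the control arrays. The groups overlapped, and the log2 difference of -0.04 ± 0.07 (SE) had a 95% interval of -0.20 to 0.11 (limma adjusted p = 0.717). SLC2A3 (GLUT3), a transporter of high affinity, had 6.75, 6.87 and 6.89 under GDC-0941, against 6.81, 6.81 and 6.61 in controls. Its difference was 0.09 ± 0.07 (SE; limma adjusted p = 0.382).

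HK2, the inducible hexokinase that phosphorylates glucose at the outer mitochondrial membrane, had 7.60, 7.47 and 7.54 on the GDC-0941 arrays, against 8.45, 8.69 and 8.61 on the control arrays. Every GDC-0941 array lay below every control array, with a gap several times the spread within either group. The log2 difference was -1.05 ± 0.07 (SE; limma adjusted p = 1.63e-06), and only 23 of the 19775 genes had a more negative one. Its other 2 probe sets, both dimmer, were also lower, by log2 differences of -0.33 and -0.28, and the mean of all 3 was lower by -0.55 ± 0.05 (SE). HK1, the constitutive hexokinase, had 12.24, 12.18 and 12.21 under GDC-0941, against 12.23, 12.27 and 12.32 in controls. These ranges overlapped, and the difference was -0.06 ± 0.06 (SE), with a 95% interval of -0.18 to 0.06 (limma adjusted p = 0.466). Within each array the ratio of HK2 to HK1 was 1.97-fold lower after GDC-0941 (log2 change -0.98 ± 0.06 SE), a measure that no centring of the array can move. With the probe sets of each gene averaged, this change was -0.49. All 3 probe sets of HK2 lay below the median level of all genes.

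GPI, which converts glucose 6-phosphate to fructose 6-phosphate, fell to 10.89, 10.74 and 10.83 under GDC-0941, against 11.10, 11.06 and 11.16 in controls. The groups did not overlap (log2 difference -0.28 ± 0.06 SE, limma adjusted p = 0.00416). GPI stands at the point where the pentose phosphate branch leaves glycolysis.

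The 3 phosphofructokinase genes, whose subunits form the tetramer that commits sugar to glycolysis, did not move together. PFKP, the platelet-type subunit, had 10.64, 10.55 and 10.56 under GDC-0941, against 11.27, 11.32 and 11.46 in controls. Its fall of -0.77 ± 0.06 (SE, log2; limma adjusted p = 7.07e-06) was seen by the brighter of its 2 probe sets, while the dimmer one gave 0.14 ± 0.07 (SE) without passing, and their mean was lower by -0.32 ± 0.05 (SE; limma adjusted p = 0.00104). PFKL, the liver-type subunit, had 10.57, 10.43 and 10.53 under GDC-0941, against 10.64, 10.77 and 10.79 in controls. The groups were separated by little, and the fall of -0.22 ± 0.06 (SE; limma adjusted p = 0.022) was no longer called without any one of GDC-0941 replicate 2 or 3 or control replicate 2 or 3 (limma adjusted p 0.0556 to 0.0855). PFKM, the muscle-type subunit, had 11.39, 11.23 and 11.34 under GDC-0941, against 11.06, 11.01 and 11.06 in controls. It rose by 0.28 ± 0.06 (SE; limma adjusted p = 0.00397), the largest rise among the 28 genes, on its 1 probe set. The ratio of PFKP to PFKM was thus 2.07-fold lower within arrays (log2 change -1.05 ± 0.06 SE) and that of PFKP to PFKL 1.47-fold lower (-0.55 ± 0.04 SE). With the probe sets of each gene averaged, these changes were -0.60 and -0.05.

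The PFKFB genes encode enzymes that make and break fructose 2,6-bisphosphate, the main activator of phosphofructokinase. PFKFB3, the form with the strongest kinase activity, had 12.74, 12.76 and 12.78 under GDC-0941, against 12.56, 12.52 and 12.44 in controls, and rose by 0.25 ± 0.06 (SE; limma adjusted p = 0.00548). PFKFB4 had 8.55, 8.62 and 8.67 under GDC-0941, against 8.83, 8.80 and 8.98 in controls, and fell by 0.26 on the log2 scale (limma adjusted p = 0.0119). Neither pair of groups overlapped, and these 2 genes of 1 family moved in opposite directions. Without control replicate 3 the call of PFKFB4 was lost (limma adjusted p = 0.0502), and its second probe set did not pass (-0.06 ± 0.06 SE), while the mean of both gave -0.16 (limma adjusted p = 0.0335) and array weights gave -0.17. PFKFB2 had 8.41, 8.48 and 8.41 under GDC-0941, against 8.37, 8.39 and 8.40 in controls, a difference of 0.05 ± 0.05 (SE; limma adjusted p = 0.61) although the arrays did not overlap. The ratio of PFKFB4 to PFKFB3 was 1.42-fold lower within arrays (log2 change -0.51 ± 0.10 SE).

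In the splitting of the sugar and the interconversion of the trioses, ALDOA and TPI1 fell and ALDOC did not pass. ALDOA, the main aldolase of most dividing cells, had 13.62, 13.48 and 13.58 under GDC-0941, against 13.76, 13.74 and 13.87 in controls. The groups did not overlap, all 3 probe sets were lower, and the fall of -0.23 ± 0.06 (SE; limma adjusted p = 0.0152) was no longer called without GDC-0941 replicate 2 or control replicate 3 (limma adjusted p = 0.052 and 0.0617). Its most variable probe set gave -0.42. ALDOC, the brain-type aldolase, had 10.52, 10.32 and 10.44 under GDC-0941, against 10.29, 10.28 and 10.29 in controls. All of its GDC-0941 arrays were above its controls, but they were widely spread, and the difference of 0.14 ± 0.06 (SE) did not pass (limma adjusted p = 0.131). It did pass without GDC-0941 replicate 2 (limma adjusted p = 0.0393). TPI1, which interconverts the triose phosphates, had 11.33, 11.31 and 11.31 under GDC-0941, against 11.69, 11.65 and 11.71 in controls. Spread within groups was very small here, all 3 probe sets were lower, and the fall was -0.37 ± 0.05 (SE; limma adjusted p = 0.000315), or -0.19 (limma adjusted p = 0.0324) with probe sets without a cross-match mark (the manufacturer's suffix for those that can match several transcripts) taken first.

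GAPDH and PGK1, which make the first NADH and the first ATP of lower glycolysis, did not pass through their brightest probe sets. GAPDH had 13.95, 13.94 and 13.95 under GDC-0941, against 14.02, 14.00 and 14.09 in controls (log2 difference -0.09 ± 0.05 SE, limma adjusted p = 0.26). Its 3 manufacturer's control probe sets, at the 3′ end, the middle and the 5′ end of the transcript, differed by -0.06, -0.11 and -0.08. The GAPDH groups did not overlap, but lay close together. PGK1 had 12.59, 12.60 and 12.57 under GDC-0941, against 12.76, 12.72 and 12.67 in controls, a difference of -0.13 ± 0.05 (SE; limma adjusted p = 0.0979). Here the choice of probe set decided the call: 2 of its 6 probe sets were lower, and the brightest one without a cross-match mark gave -0.36 ± 0.06 (SE; limma adjusted p = 0.000878 with such probe sets taken first).

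Further down, PGAM1, ENO1, ENO2 and PKM all fell. PGAM1, the phosphoglycerate mutase, had 13.29, 13.18 and 13.25 under GDC-0941, against 13.54, 13.55 and 13.59 in controls (log2 difference -0.32 ± 0.06 SE, limma adjusted p = 0.00108). PKM, pyruvate kinase, had 12.98, 12.95 and 13.04 under GDC-0941, against 13.21, 13.22 and 13.27 in controls (-0.24 ± 0.06 SE, limma adjusted p = 0.00582), and both of its probe sets were lower. Neither gene's groups overlapped. The probe sets of PKM do not separate its splice forms in the annotation used here.

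Both enolases fell by their brightest probe sets. ENO1, the ubiquitous enolase, had 12.68, 12.56 and 12.68 under GDC-0941, against 12.82, 12.85 and 12.87 in controls (log2 difference -0.21 ± 0.06 SE, limma adjusted p = 0.0167). ENO2, the neuronal enolase, had 7.39, 7.24 and 7.38 under GDC-0941, against 7.57, 7.55 and 7.55 in controls (-0.22 ± 0.06 SE, limma adjusted p = 0.0157). The ratio of ENO2 to ENO1 within arrays changed by -0.01 ± 0.02 (SE), and its groups overlapped (exact permutation p = 0.9, two-sided). This holds for the brightest probe sets alone, as the change was -0.31 with the most variable probe sets or with those without a cross-match mark first, and -0.12 with all averaged. Of the 4 probe sets of ENO1 1 was lower, and the dimmest, the one without a cross-match mark, gave 0.09 ± 0.08 (SE). The call of ENO1 was lost without GDC-0941 replicate 2 or control replicate 2 or 3 (limma adjusted p 0.0501 to 0.0597). That of ENO2 was lost without control replicate 1 or 2 (limma adjusted p = 0.053 and 0.0501).

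At the last step LDHA, the subunit of lactate dehydrogenase that prevails in glycolytic tumours, had 13.30, 13.24 and 13.26 under GDC-0941, against 13.64, 13.59 and 13.63 in controls. The groups were well apart, with a fall of -0.36 ± 0.05 (SE; limma adjusted p = 0.000403). LDHB, the heart-type subunit, had 7.00, 7.09 and 7.11 under GDC-0941, against 7.02, 7.02 and 7.03 in controls. Its groups overlapped, and the difference of 0.04 ± 0.06 (SE) had a 95% interval of -0.08 to 0.17 (limma adjusted p = 0.652). The ratio of LDHB to LDHA was 1.32-fold higher after GDC-0941 (log2 change 0.40 ± 0.05 SE), with both probe sets of LDHB below the median level of all genes.

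**Figure D2:**
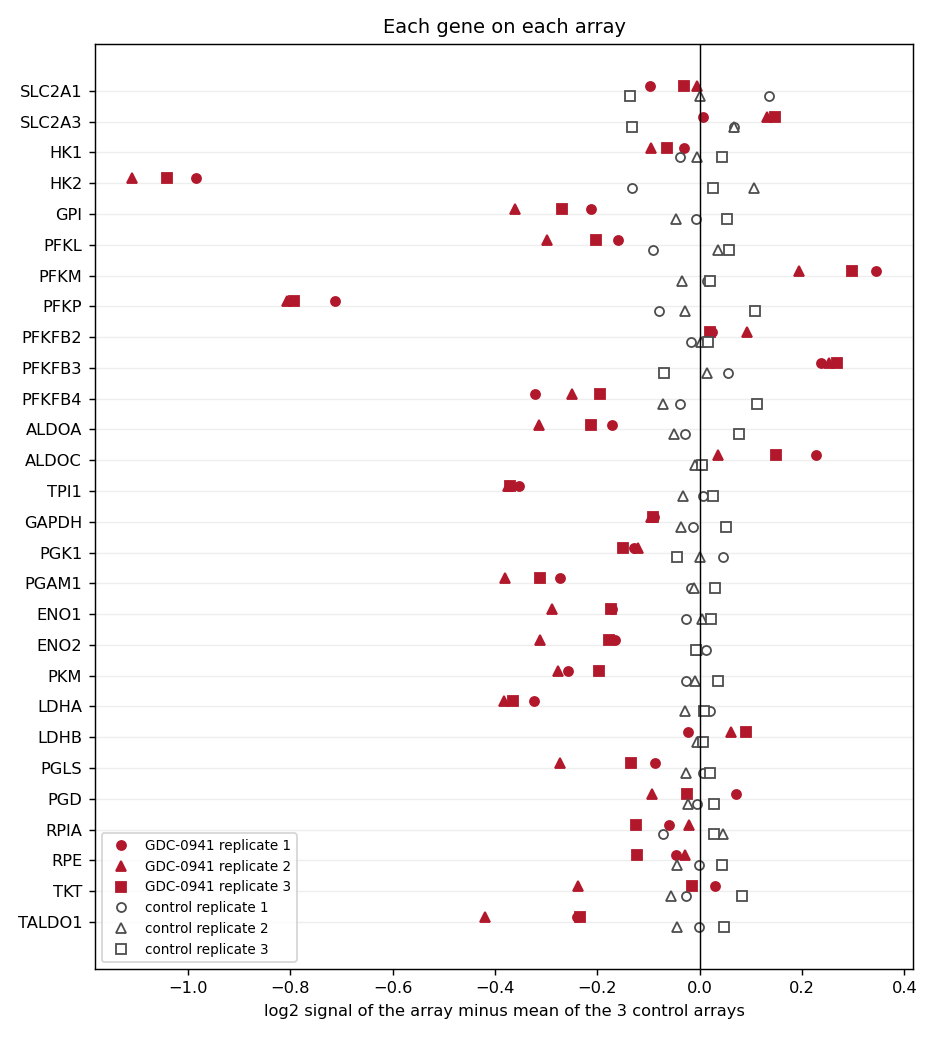
Log2 signal of each of the 28 genes (down the page, in pathway order) on each array, minus the mean of the 3 control arrays. Red filled symbols are the 3 GDC-0941 arrays and open symbols the 3 control arrays. GDC-0941 arrays lie left of all controls in 16 genes and right of them in 4, and the red triangles of GDC-0941 replicate 2 are often furthest left.

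Of the 6 pentose phosphate genes 1 passed by the brightest probe sets, TALDO1, the transaldolase of the non-oxidative branch. It had 11.84, 11.66 and 11.85 under GDC-0941, against 12.08, 12.04 and 12.13 in controls (log2 difference -0.30 ± 0.07 SE, limma adjusted p = 0.00462), and its groups did not overlap. TKT, the transketolase that works beside it, had 11.91, 11.64 and 11.86 under GDC-0941, against 11.85, 11.82 and 11.96 in controls. Its groups overlapped, and the difference of -0.07 ± 0.08 (SE; limma adjusted p = 0.541) was 0.01 without GDC-0941 replicate 2. TKT was at -0.24 with probe sets without a cross-match mark first and with the most variable one (limma adjusted p = 0.0115 and 0.019). RPIA and RPE, which interconvert the pentose phosphates, differed by -0.07 ± 0.06 each (SE; limma adjusted p = 0.466 and 0.46).

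In the oxidative branch, PGD, which releases NADPH and carbon dioxide from 6-phosphogluconate, had 11.52, 11.36 and 11.43 under GDC-0941, against 11.45, 11.43 and 11.48 in controls. The difference was -0.02 ± 0.06 (SE), with a 95% interval of -0.15 to 0.12 (limma adjusted p = 0.892). PGLS, the lactonase before it, had 10.90, 10.71 and 10.85 under GDC-0941, against 10.99, 10.96 and 11.01 in controls. Its groups did not overlap, and the difference of -0.17 ± 0.06 (SE) missed the threshold (limma adjusted p = 0.0712) with 1 of its 4 probe sets called lower. PGLS was at -0.28 with probe sets without a cross-match mark first and with the most variable one (limma adjusted p = 0.00303 and 0.00626). As a group, the 6 pentose phosphate genes had a median log2 difference of -0.071, against -0.232 for the 9 genes of upper glycolysis (HK1 to TPI1 without the PFKFB genes) and -0.215 for the 8 of lower glycolysis (GAPDH to LDHB). Calls were 1 lower in the pentose phosphate group, 6 lower and 1 higher in upper glycolysis, and 5 lower in lower glycolysis, where 15.6% of all genes were lower and 12.1% higher. The 1 of 6 pentose phosphate genes is near that share of lower calls. All 6 lie above the median level, where 31.4% of genes were called lower. In that fit TALDO1 and PGLS passed (limma adjusted p = 0.000327 and 0.0201). The medians and counts of the groups are those of the brightest probe sets, and TKT and PGLS were called lower under the other rules given above. The difference between these groups was not tested.

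Paralogues of 1 step were compared within arrays in 9 pairs. The ratio of 2 genes does not change when an equal log2 amount is added to all genes of an array. A normalization that moves genes unequally can still change it. In 8 of the 9 pairs the ratios of the 3 GDC-0941 arrays did not overlap those of the 3 controls, ENO2 to ENO1 being the exception. Over all 195515425 pairs of the 19775 genes, 45.5% did not overlap in this way. With 3 arrays against 3 the smallest two-sided exact permutation p is 0.1, which all 8 pairs had (0.113 adjusted over the 9 pairs), so none can pass 0.05. The changes of HK2 to HK1, PFKP to PFKM, PFKP to PFKL and PFKFB4 to PFKFB3 were the largest, between -0.51 and -1.05. LDHB to LDHA followed at 0.40 ± 0.05 (SE), and the others were smaller. ALDOC to ALDOA changed by 0.37 ± 0.04 (SE), PFKFB2 to PFKFB3 by -0.21 ± 0.05 and SLC2A3 to SLC2A1 by 0.14 ± 0.04. The choice of probe set moved these smaller changes too. SLC2A3 to SLC2A1 was -0.03 with probe sets without a cross-match mark first, 0.05 with all averaged and 0.06 with the most variable. PFKFB2 to PFKFB3 was -0.11, -0.14 and -0.04 under the same rules, and ALDOC to ALDOA was 0.56 with the most variable. The ratios of PFKFB4 to PFKFB3 and LDHB to LDHA moved by less than 1.5 times.

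**Figure D3:**
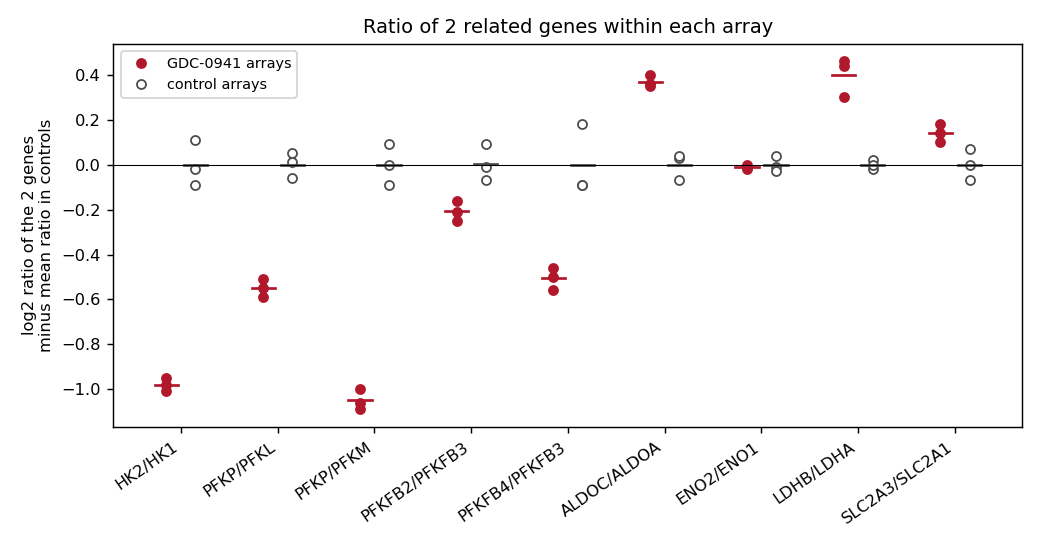
Log2 ratio of 2 paralogous genes within each array, minus the mean ratio of the 3 controls (vertical axis), for 9 pairs. Red points are GDC-0941 arrays, open points control arrays and short lines their means. The ratios of HK2 to HK1 and of PFKP to PFKM are near -1 in all GDC-0941 arrays, and that of ENO2 to ENO1 stays near 0 with the brightest probe sets used here.

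Some arrays were often the lowest or the highest of their group among the members. In 16 genes all GDC-0941 arrays lay below all controls and in 4 above, where 24.0% and 17.5% of all genes did so (41.5% together). GDC-0941 replicate 2 was the lowest of its group in 19 of the 28 genes and control replicate 3 the highest of its group in 19. These orders were not counted over all genes, so they may not be particular to the members. The median of the 28 genes, relative to control means, was -0.113, -0.244 and -0.142 on the 3 GDC-0941 arrays, against -0.006, -0.01 and 0.026 on the controls. Leaving out 1 array at a time gave 9 to 14 genes lower and 2 or 3 higher, with 9 lower without control replicate 3. The arrays as a whole had medians of 7.34 to 7.38. The signal of the manufacturer's probe sets at the 3′ end relative to the 5′ end changed by 0.02 for GAPDH and 0.14 for ACTB (log2, GDC-0941 minus control). The ACTB probe sets at the 3′ end, the middle and the 5′ end differed by -0.12, -0.25 and -0.26. The last 2 are of the size of the smaller falls. Whether any of this bears on those falls was not tested.

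The 28 genes had 65 probe sets that name 1 gene, 25 of them lower and 2 higher, where 9.89% and 8.88% of all 54613 probe sets were called. The 54613 are an unlike set, as 11721 of them name no gene and 1801 name several. Among genes above the median level, with 1 probe set each, the shares were 31.4% lower and 23.2% higher. No gene had probe sets called in both directions. HK2, ALDOA and TPI1 were lower in 3 of 3 probe sets, and PFKL and PKM in 2 of 2. PGK1, PGLS and TKT, not called through the brightest probe set, had 2 of 6, 1 of 4 and 1 of 3 lower. GPI, PFKM, PFKFB3, PGAM1, ENO2, LDHA and TALDO1 rest on 1 probe set each, as do HK1, ALDOC and RPIA.

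**Figure D4:**
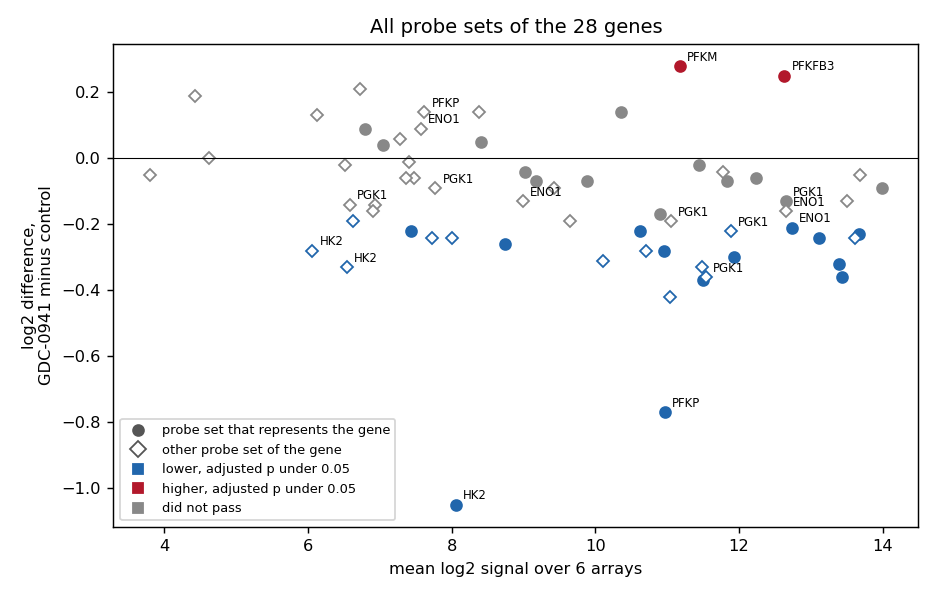
Log2 difference (GDC-0941 minus control, vertical axis) of all 65 probe sets of the 28 genes against their mean log2 signal over the 6 arrays. Filled circles are the probe sets that represent the genes, open diamonds the others, blue lower, red higher and grey not passing. The main probe sets of HK2 and PFKP lie below all others, and the second probe set of PFKP at a signal of 7.62 does not follow.

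Other genes of glucose metabolism were counted from a list of 47, of which 40 were measured. Of these 8 fell and 3 rose, with a median log2 difference of -0.083, where 15.6% of all genes fell and 12.1% rose. With arrays centred on hybridisation controls 2 fell and 4 rose, where 4.53% and 28.8% of all genes did. TIGAR, a phosphatase that lowers fructose 2,6-bisphosphate and so opposes glycolysis, had 6.86, 6.69 and 6.74 under GDC-0941, against 7.72, 7.82 and 7.90 in controls, and was 2.07-fold lower (limma adjusted p = 1.35e-06). UGP2, which makes UDP-glucose, and the transporters SLC2A8 and SLC2A6 were 1.34-fold, 1.30-fold and 1.28-fold lower. The transporters SLC2A13 and SLC2A10 rose 1.56-fold and 1.52-fold, and GPD1L rose 1.19-fold. With arrays centred on hybridisation controls the differences of SLC2A8 and SLC2A6 were -0.21 and -0.19.

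For the entry of pyruvate into mitochondria, 5 of 15 measured genes fell and 4 rose, against 15.6% and 12.1% of all genes. With arrays centred on hybridisation controls 2 fell and 5 rose, against 4.53% and 28.8%. PDK4, a kinase that shuts off pyruvate dehydrogenase, rose to 7.90, 7.87 and 7.63 under GDC-0941, against 6.54, 6.68 and 6.76 in controls (2.20-fold, limma adjusted p = 2.46e-06), while PDK1, another such kinase, was 1.59-fold lower. PDPR rose 1.62-fold, PDK2 1.29-fold and PDHX 1.16-fold, and PCK2, MPC2 and PDP1 were 1.37-fold, 1.21-fold and 1.18-fold lower. The count of falls was 3 without GDC-0941 replicate 3 or control replicate 2.

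Hypoxia-inducible genes outside glycolysis, a list of 20 with 19 measured, had 5 lower and 6 higher and a median log2 difference of 0.073, where 15.6% of all genes were lower and 12.1% higher. With arrays centred on hybridisation controls 2 were lower and 10 higher, where 4.53% and 28.8% of all genes were. VEGFA, ANGPTL4, P4HA2 and EGLN1 were 1.68-fold, 1.34-fold, 1.29-fold and 1.18-fold lower, and MXI1, BHLHE40, KDM3A and BNIP3L rose 1.81-fold, 1.58-fold, 1.57-fold and 1.36-fold. Of 15 regulators of glycolysis genes 7 rose and none fell (limma; 1 was lower at an unadjusted p under 0.05, and 1 passed without control replicate 1), against 12.1% and 15.6% of all genes. With arrays centred on hybridisation controls 9 rose, against 28.8% of all genes. FOXO3, EPAS1, TXNIP, which restrains glucose uptake, and MYC led these, at 1.90-fold, 1.52-fold, 1.49-fold and 1.37-fold.

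The label of the line was checked against marker lists. All 9 luminal mammary markers lay above the median level of all genes (8.20), between 10.12 for TFF1 and 14.27 for GATA3. Of 5 basal or mesenchymal markers 1 did (FN1, 10.00), as did 1 of 3 fibroblast markers (COL1A1, 10.68), 1 of 3 leukocyte markers (CD3E, 8.81) and 1 of 2 endothelial markers (PECAM1, 9.43). Of the 9 luminal markers 3 were called lower and 3 higher, where 15.6% of all genes were lower and 12.1% higher. COL1A1 rose by 0.56 ± 0.07 (SE, log2; limma adjusted p = 6.53e-05), the 1 of 3 fibroblast markers called. The mean of the 3 fibroblast markers ranged from 8.67 to 8.77 on the GDC-0941 arrays and from 8.47 to 8.61 on the control arrays. The part of COL1A1 in the changes above was not tested. RMA signals carry no detection call, and levels of different probe sets are not on one scale, so these values only place each marker against the array as a whole.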

How the data were processed

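The deposited table holds log2 signals of 54675 probe sets on 6 arrays, made by the authors with RMA, the 1 tool in the submitters' processing notes. No version of it is given in the sources used. The log2 scale was read from the values (3.00 to 14.81). Per the labels' protocols, biotinylated cRNA came from 6 ug of total RNA by the array manufacturer's standard protocol. Leaving out 62 control probe sets, 41091 name 1 gene, with symbols updated by Entrez identifier for 41037 through the RefSeq table of GRCh38.p14, 1801 name several and 11721 none. The brightest probe set of a gene represented it, and dim ones were not filtered out.

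The comparison used limma 3.58.1 under R 4.3.3 (lmFit, eBayes, two-sided, adjusted by Benjamini-Hochberg over 19775 genes, threshold 0.05), and all probe sets likewise. Values were also simulated for this comparison over 19775 genes. There the fit found 26% of changes of 0.25, 76% of 0.5 and 100% of 1 or 2 (log2). That simulation gave 155 calls, against 3090 genes lower and 2398 higher in the data. With so few calls, its percentages cannot be carried over to the data. Within-array ratios of 2 genes were tested by an exact permutation test over 20 arrangements. The number of arrays limits the precision. Members, lists, tests and alternatives were chosen with earlier results of these data known. The naming rule took all measured members and, of each other list, up to 4 called genes with the largest change in each direction. Promoters were shown for the members with the largest falls and rises. Alternatives tried were a replicate block, single arrays left out, other scalings, variance models, filters, probe set rules and a threshold of 0.01. Figures were drawn with matplotlib 3.10.9.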

Additional observations from a re-analysis of the deposited data

How the results depend on the processing

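The 15 calls among the 28 genes kept their direction and their side of the threshold with quantile normalization again, array medians, a variance trend with robust estimation and array weights, and the 13 of them above the median level did so there. Further genes passed in some of these settings. The calls were 14 lower and 3 higher with quantile normalization again, 16 and 2 with the variance trend, and 17 and 3 with array weights. With the trend, GAPDH, PGK1 and PGLS were called lower (limma adjusted p = 0.0242, 0.0104 and 0.0258). With unmarked or most variable probe sets 15 were lower. Centring on hybridisation controls left 2 genes lower and 4 higher, with a median of 0.021 for the 28 genes. Over all genes it gave 895 lower and 5688 higher. It left 2 lower in each of the other glucose metabolism, pyruvate and hypoxia lists, and 10 higher in the hypoxia list. That centring adds 1 amount per array to every gene. It turned the sign of 9 genes, none passing either way, with SLC2A1 at 0.12, HK1 at 0.11, GAPDH at 0.08, PGK1 at 0.04, PGLS at 0.00, PGD at 0.15 and RPIA, RPE and TKT at 0.10 each. A threshold of 0.01 left 8 lower. The median was -0.206 with unmarked probe sets first and -0.229 with the most variable ones, against -0.149 with the brightest. SLC2A1 was at 0.13 under both rules and at 0.04 with all probe sets averaged, ENO1 at 0.09 under the first 2, and LDHB at -0.02 with the most variable one. Array weights, whose estimation stopped before converging, gave 5176 lower and 4235 higher over all genes, and TKT at 0.00. The cause of these moves was not tested.

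Leaving out 1 array at a time gave 9 to 14 of the 28 genes lower, 2 to 3 higher and a median of -0.170 to -0.125. Over all genes it gave 2475 to 3192 lower and 1851 to 2444 higher. It gave 6 to 10 lower and 3 to 4 higher of the other glucose metabolism genes, 3 to 6 and 3 to 4 of the pyruvate genes, 4 to 5 and 6 to 8 of the hypoxia genes, and 0 to 1 and 6 to 7 of the regulators. SLC2A1 ranged from -0.11 to 0.02, PGD from -0.06 to 0.02 and TKT from -0.13 to 0.01. With the replicate number as a block, 13 genes were lower and 2 higher, and no call among the 28 changed. Over all genes the block gave 2781 lower and 2151 higher. In the labels, arrays of the same number share only that number. Their deviations from the group means correlated at -0.346, 0.187 and -0.017. These values were not set against pairs of different numbers, so they cannot exclude a shared culture or batch. The regulators list and the within-array ratios got their alternatives after the data were seen. RMA signals have no detection call, so changes of the dimmest genes, such as SLC2A3 and LDHB, may be understated. HK2 and ENO2 also lay below the median level of all genes (8.20), at mean signals of 8.06 and 7.44.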
